A study of Homo sapiens with 6 samples.

Results

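The enzymes that write, maintain and remove DNA methylation were followed in SKBR3 cells depleted of NDRG1. The set of 10 genes was chosen by name, with results of this contrast known. It holds the methyltransferases DNMT1, DNMT3A, DNMT3B and DNMT3L, the maintenance factors UHRF1 and UHRF2, the dioxygenases TET1, TET2 and TET3, and the glycosylase TDG. Of these, 8 were measured, among 14812 genes with a symbol in all, while UHRF2 and TET3 had no probe under their symbols and were not analysed here. SKBR3, a line established from a breast cancer with HER2 amplification, was transduced with a lentiviral shRNA against NDRG1 (shNDRG1, 3 arrays) or with an shRNA against GFP (shGFP control, 3 arrays). All 6 cultures were kept in serum-containing medium without DFO, the iron chelator deferoxamine, and were harvested in log phase. The sample labels number 3 batches, each holding 1 shNDRG1 and 1 control array, without saying what makes a batch. They also carry a day, which is earlier for batch 1 and the same for the other batches, without saying what the day marks. The arrays came from 1 cell line and 1 hairpin per group, and the methods speak of a vector control where the labels name GFP. The deposited values are relative to a baseline subtracted from each probe and are read as log2, although no source used here names the base, so differences between arrays remain but levels do not. Neither the levels of different genes nor the presence of the markers of SKBR3 cells could therefore be read from them.

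Methylation of cytosine in CpG dinucleotides is laid down de novo by DNMT3A and DNMT3B, with DNMT3L as a cofactor that has no catalytic activity of its own. After replication, UHRF1 binds hemimethylated CpG and recruits DNMT1, which copies the pattern to the new strand. The TET enzymes oxidise 5-methylcytosine in a reaction that needs iron and 2-oxoglutarate, and TDG cuts out the oxidised bases so that base excision repair can restore cytosine. DNMT3B is best known for its expression in early embryos and in many tumours, and its loss of function causes an immunodeficiency syndrome with centromere instability.

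NDRG1, the target of the hairpin, was at -0.77, -0.74 and -1.09 in the shNDRG1 arrays, in the order of the batches, and at 0.022, 0.42 and -0.022 in the controls. It was lower in every batch. The first principal component held 72.0% of the variance between arrays and placed both arrays of batch 2 (22.0 and 31.1) above the other 4 (-20.1 to 1.11), so differences are given within batches. No gene passed the test across all genes. From limma, 0 of 14812 genes had an adjusted p under 0.05 either without or with the batch as a block (0% of genes), whereas 631 genes (4.26%) had an unadjusted p under 0.05 without the block and 1399 (9.45%) with it. The number of arrays and the shifts between batches limit the precision, and in RNA from whole cultures fewer cells expressing a gene and less RNA per cell cannot be told apart.

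DNMT3B was lower in shNDRG1 cells in every batch. In batches 1, 2 and 3 its value was -0.24, -0.20 and -0.15 after the NDRG1 hairpin, compared with 0.22, 0.21 and 0.24 after the GFP hairpin. All shNDRG1 arrays lay below all control arrays, with little spread in either group. The within-batch differences were -0.46, -0.40 and -0.39, with a mean of -0.42 ± 0.037 (SD, n = 3), or 1.34-fold lower. The set was proposed with the values of this contrast known, so they describe DNMT3B and the other members and test nothing. By p from limma without the block, DNMT3B had rank 3 among the genes lower in shNDRG1 cells and rank 7 among all genes. With batches blocked its rank among all genes was 30. In neither fit did it pass over all genes (standard error 0.046, adjusted p = 0.328 from limma, and 0.304 when batches were blocked). By size its difference was less extreme, with rank 132 from the lowest, since 0.884% of genes were lower. The 1 probe that stands for DNMT3B (16912597) cannot separate its transcripts.

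**Figure D1:**
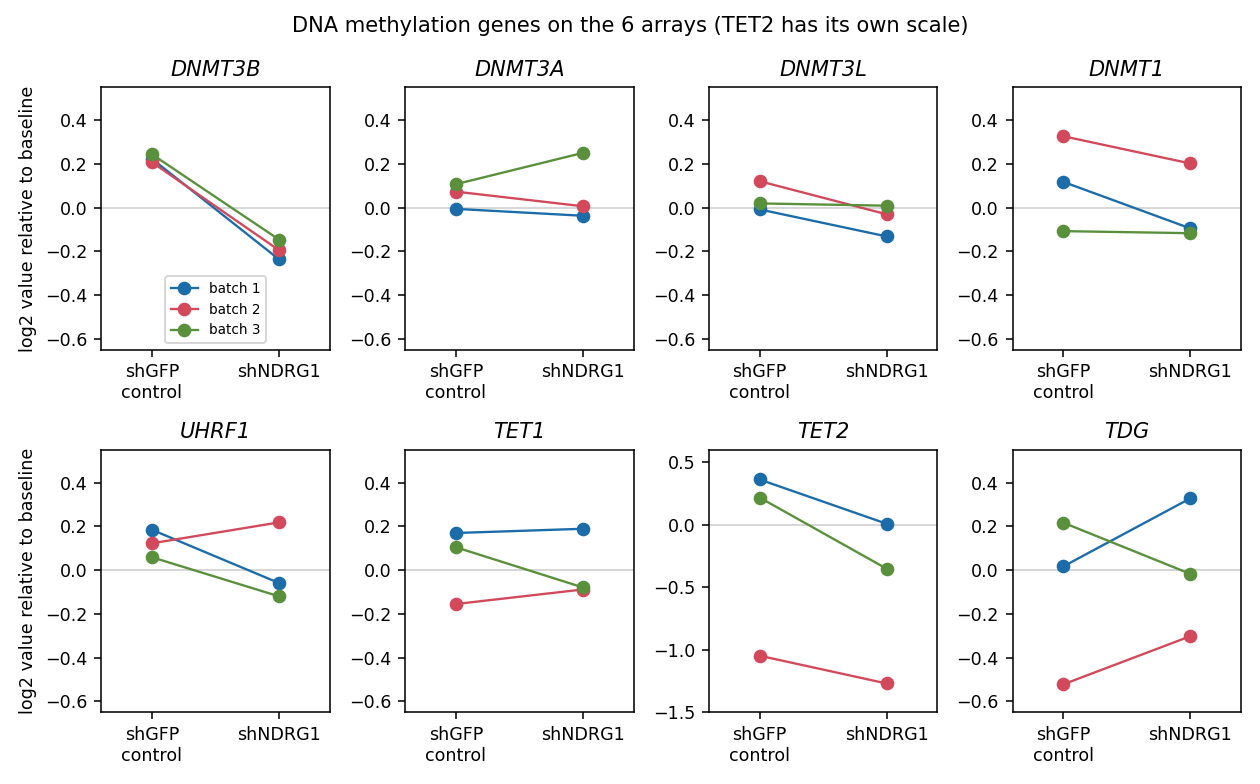
Values of the 8 measured DNA methylation genes on each array, as log2 relative to the baseline of the probe (vertical axis), in shGFP control and shNDRG1 cells, with a line joining the arrays of the same batch. DNMT3B is the gene whose groups do not overlap, from -0.24 to -0.15 against 0.21 to 0.24, and TET2, drawn on its own scale, reaches -1.27 in batch 2.

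The other members of the DNMT3 family did not show such a separation. DNMT3A, the main de novo enzyme of differentiated cells, was at -0.038, 0.0060 and 0.25 in shNDRG1 cells and at -0.0060, 0.073 and 0.11 in control cells. The groups overlapped, and the differences of -0.032, -0.067 and 0.14 changed sign between batches. Its log2 difference was 0.015 (standard error 0.090), with a 95% confidence interval of -0.16 to 0.19 when the batch was a block. Intervals here and below are from that fit and are not adjusted for the number of genes. DNMT3L, which is normally confined to germ cells and early embryos, was at -0.13, -0.031 and 0.0085 against -0.0085, 0.12 and 0.019. It was below the control in all 3 batches, by -0.12, -0.15 and -0.010, but its groups overlapped. Its log2 difference was -0.095 (standard error 0.063, interval -0.24 to 0.054).

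Neither gene of the maintenance pair separated the groups. DNMT1, the maintenance methyltransferase, was at -0.095, 0.20 and -0.12 in shNDRG1 cells and at 0.12, 0.33 and -0.11 in control cells. Both batch 2 arrays were the highest of their groups, and the groups overlapped. Within batches DNMT1 differed by -0.21, -0.12 and -0.0095, a mean of -0.12 ± 0.10 (SD, n = 3), and the interval of -0.28 to 0.050 included 0. UHRF1, the reader of hemimethylated CpG, was at -0.059, 0.22 and -0.12 against 0.18, 0.12 and 0.059. It was below the control in batches 1 and 3, by -0.24 and -0.18, and above it in batch 2, by 0.096. Its log2 difference was -0.11 (standard error 0.10, interval -0.34 to 0.12). DNMT1 and UHRF1 therefore shared a mean below the control but not the same order of batches. Without both arrays of batch 2 the log2 difference of UHRF1 was -0.21, compared with -0.042 without batch 1 and -0.074 without batch 3. That of DNMT1 was -0.067, -0.11 and -0.17 without batches 1, 2 and 3.

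Among the demethylating enzymes, TET2 was the member with the largest shift between batches, and its mean difference was near that of DNMT3B. TET2 was at 0.0090, -1.27 and -0.35 in shNDRG1 cells and at 0.36, -1.05 and 0.22 in control cells. The groups overlapped because both arrays of batch 2 were below the other 4 arrays. Within batches, however, TET2 was lower in shNDRG1 cells each time, by -0.35, -0.22 and -0.57, a mean of -0.38 ± 0.18 (SD, n = 3) or 1.30-fold lower. Its standard error was 0.50 when batches were ignored and 0.083 when they were blocked, where the interval was -0.61 to -0.16. Leaving out a single array left the batches unequal and moved the TET2 difference to -0.65 without the shNDRG1 array of batch 1, -0.016 without that of batch 2, -0.12 without the control array of batch 1, -0.83 without that of batch 2 and -0.19 without that of batch 3. Leaving out both arrays of a batch gave -0.40, -0.46 and -0.29 without batches 1, 2 and 3.

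TET1, which like TET2 oxidises 5-methylcytosine, was at 0.19, -0.089 and -0.079 in shNDRG1 cells against 0.17, -0.15 and 0.10. Its within-batch differences of 0.019, 0.066 and -0.18 had no common direction, and the log2 difference was -0.033 (standard error 0.12, interval -0.22 to 0.16). These are means of 2 probes. One of them (16715048) stayed between -0.053 and 0.047 on all 6 arrays, whereas the other (16705381) ranged from -0.31 to 0.38. TDG, which removes the bases that the TET enzymes have oxidised, was at 0.33, -0.30 and -0.017 against 0.017, -0.52 and 0.22. It was higher in shNDRG1 cells in batches 1 and 2, by 0.31 and 0.22, and lower in batch 3, by -0.23. With a log2 difference of 0.099 (standard error 0.25, interval -0.23 to 0.43), TDG was the least precise member when batches were blocked and the next after TET2 when they were not.

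**Figure D2:**
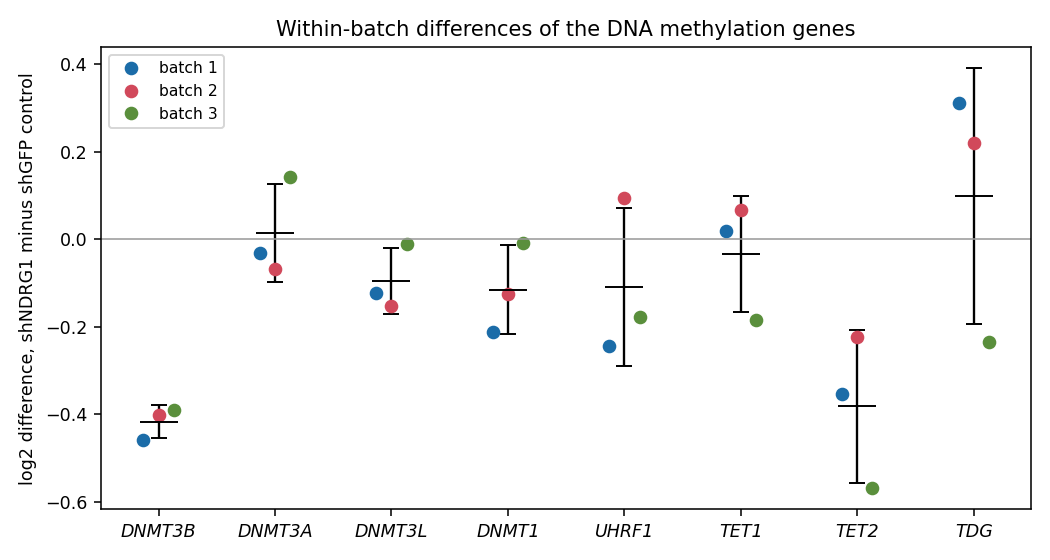
Log2 difference of shNDRG1 minus shGFP control (vertical axis) within each batch for the 8 measured genes, with the mean as a horizontal bar and the SD over the 3 batches as the error bar. DNMT3B lies between -0.46 and -0.39 and TET2 between -0.57 and -0.22, and DNMT3A, UHRF1, TET1 and TDG have points on both sides of 0.

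Counted over the set, 6 of the 8 measured genes had a mean below the control and 2 above it. Over all genes 46.4% were below. DNMT3B, DNMT3L, DNMT1 and TET2 were below the control in all 3 batches, which is 4 of 8 genes against 12.5% of all genes. No member was above it in all 3, against 17.1% of all genes. The groups of 1 member, DNMT3B, did not overlap, against 8.35% of all genes in either direction, 3.21% lower and 5.14% higher. In limma 0 members had an adjusted p under 0.05. At an unadjusted p under 0.05 there was 1 lower member without the block, DNMT3B, against 1.57% of all genes, and no higher one, against 2.69%. There were 2 lower members with the batch as a block, DNMT3B and TET2, against 3.74% of all genes, and no higher one, against 5.70%. The median log2 difference of the 8 members was -0.10 and that of all genes 0.0070. Since the set was proposed with this contrast known, nothing is read from these shares.

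DNMT3B was set against the other enzymes within each pair of arrays. Its difference minus the mean difference of the 7 other measured genes was -0.37, -0.38 and -0.24 in batches 1, 2 and 3, a mean of -0.33 ± 0.076 (SD, n = 3). Against the maintenance genes DNMT1 and UHRF1 it was -0.23, -0.39 and -0.30. DNMT3B was thus below both the set and the maintenance pair in every batch. Against TET1, TET2 and TDG together it was -0.45, -0.42 and -0.061, so that in batch 3 the contrast with the demethylating enzymes was small. Gene by gene, DNMT3B was further below the control than DNMT3A, DNMT3L, DNMT1, UHRF1, TET1 and TDG in all 3 batches. TET2 was the exception, with DNMT3B lower by comparison in batches 1 and 2 (-0.11 and -0.18) and higher in batch 3 (0.18). These are descriptions, for DNMT3B was picked for its difference.

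The members also varied between batches within each group. In control cells, batch 2 minus the mean of batches 1 and 3 was -1.34 for TET2, -0.64 for TDG and -0.29 for TET1, all below 0. In shNDRG1 cells the same shifts were -1.10, -0.46 and -0.14. The 3 demethylating genes were thus lower in batch 2 in both groups. DNMT1 went the other way, by 0.32 and 0.31, and UHRF1 was shifted by 0.31 in shNDRG1 cells and by 0.0012 in control cells. DNMT3B hardly moved, at -0.026 in control and -0.0034 in shNDRG1 cells. For comparison, the median size of this shift over all genes was 0.15 in control and 0.11 in shNDRG1 cells, and 98.5% of genes had a smaller one than TET2 in control cells. The SD within groups was 0.035 for DNMT3B, less than the 0.12 of the median gene, and 0.72 for TET2. This small SD is part of what gave DNMT3B its rank by p and is no separate result.

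**Figure D3:**
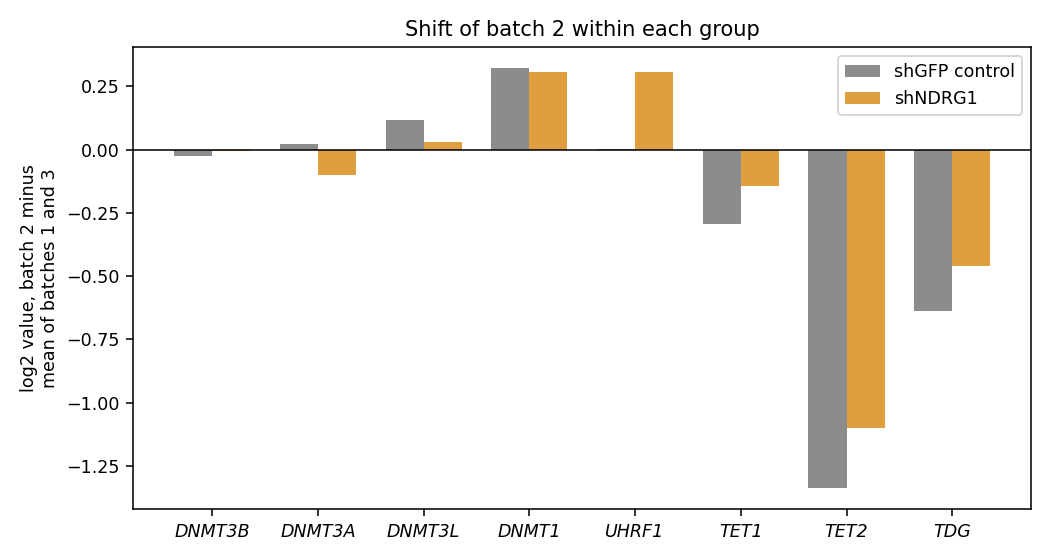
Log2 value of the batch 2 array minus the mean of the batch 1 and 3 arrays (vertical axis) within shGFP control (grey) and within shNDRG1 cells (orange), as bars, for each of the 8 genes. TET2, TDG and TET1 lie below 0 in both groups, from -1.34 to -0.14, DNMT1 lies above 0 in both, and DNMT3B is close to 0.

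The CpG dinucleotide is the substrate of these enzymes, so the bases before the start sites of DNMT3B and TET2, the 2 lowest members, and of the maintenance enzyme DNMT1 are shown with each CpG in capitals. Each run is the 250 bases before a start, 5′ to 3′ on the strand of the gene, from RefSeq (GRCh38.p14), whose promoter table matched 7 of the 8 measured genes and not DNMT3L.
DNMT3B, chr20:32779602-32779851, plus strand: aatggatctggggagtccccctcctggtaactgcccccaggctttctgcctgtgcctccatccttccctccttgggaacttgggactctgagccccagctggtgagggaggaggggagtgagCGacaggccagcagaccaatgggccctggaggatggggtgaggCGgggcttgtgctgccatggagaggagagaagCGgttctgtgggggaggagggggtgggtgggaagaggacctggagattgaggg
DNMT1, chr19:10194954-10195203, minus strand: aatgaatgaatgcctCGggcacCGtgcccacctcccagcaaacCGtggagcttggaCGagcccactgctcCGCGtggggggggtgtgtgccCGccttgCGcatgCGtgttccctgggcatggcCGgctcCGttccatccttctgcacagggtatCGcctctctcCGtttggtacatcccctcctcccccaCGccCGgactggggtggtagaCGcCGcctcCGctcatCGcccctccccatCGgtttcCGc
TET2, chr4:105145625-105145874, plus strand: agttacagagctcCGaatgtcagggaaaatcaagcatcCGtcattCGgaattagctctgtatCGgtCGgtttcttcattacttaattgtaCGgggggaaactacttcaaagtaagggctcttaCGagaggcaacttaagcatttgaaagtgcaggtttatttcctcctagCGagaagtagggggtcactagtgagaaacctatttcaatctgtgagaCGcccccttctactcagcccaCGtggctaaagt
The windows of DNMT1 and TET2 end just before the first base of the gene and hold 21 and 10 CpG. That of DNMT3B holds 3 CpG, but its start lies 17467 bases inside the gene, the 1 start of DNMT3B in the table, so it does not stand for the transcripts that begin further upstream. Another TET2 start, 1001 bases into the gene, had 34 CpG in its window, and TDG had 22. The median of all 35116 windows was 11 CpG. Motifs were searched on both strands. An E2F-like TTGGCGC was found in the TDG window (2.56% of all windows hold it), TTCCCGC in 1 of 3 UHRF1 windows (5.52%) and TTCGCGC in another (1.85%), and none of these 3 in the windows of DNMT3B, DNMT1, DNMT3A, TET1 or TET2. The CCAAT letters were present in the windows of DNMT3B and TDG and in some of those of TET1 and UHRF1 (32% of all windows). The GC box GGGCGG was found in 1 of the 2 TET2 windows, in all 3 of UHRF1 and in 4 of the 6 of DNMT3A (42.6%). TTCCCGC can share its last letters with a GC box read on the other strand. Methylation itself was not measured on these arrays.

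The genes whose values ran most like those of DNMT3B over the 6 arrays were NOTCH2 (Pearson r = 0.992), MTARC1 (0.991), LOHAN2 (0.981), FOXA1 (0.979) and CLVS1 (0.979). NOTCH2 is a Notch receptor, FOXA1 a transcription factor of luminal cells and MTARC1 a mitochondrial reductase. All 5 were below the control in every batch, NOTCH2 by -0.41, -0.41 and -0.41 and FOXA1 by -0.72, -0.54 and -0.42. The most opposite were VLDLR, a lipoprotein receptor (r = -0.999), ZNF273 (-0.992) and FAM30A (-0.972), with VLDLR higher by 1.08, 0.94 and 0.99. The arrays share batches and form the groups that DNMT3B was picked for, so such r largely restate the group difference, and 20 of 14811 genes had an r above 0.95. NDRG1 itself had an r of 0.900 with DNMT3B. The other members had an r from 0.681 for DNMT3L to -0.173 for TDG.

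Neighbouring genes on chromosome 20 had smaller differences than DNMT3B. The 4 measured genes on each side in the RefSeq order (GRCh38.p14) had log2 differences from -0.21 (NECAB3) to 0.032 (NOL4L), the groups of all 8 overlapped, and the nearest, COMMD7 and SUN5, had -0.18 and 0.028. Around TET2 on chromosome 4 the range was -0.34 (ARHGEF38) to 0.10 (CISD2). ARHGEF38 was below the control in every batch, as TET2 was, by -0.25, -0.057 and -0.72, and its groups overlapped. Another of these neighbours, CXXC4, encodes a CpG-binding protein that in mouse cells promotes the loss of TET2 protein. CXXC4 was at -0.047, 0.012 and -0.012 in shNDRG1 cells and at 0.018, 0.064 and 0.12 in control cells, so that all shNDRG1 arrays were below all control arrays, with a log2 difference of -0.082 (standard error 0.049). CXXC4 had an unadjusted p above 0.05, and the groups of TACR3, the next neighbour, did not overlap either (-0.11). Over all genes 3.21% were separated in this direction.

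Genes that act with the set were taken from 9 lists of readers, partners, repair factors, cofactor metabolism and likely targets, and 2 lists of cell type markers were added. From limma 0 of the listed genes had an adjusted p under 0.05 in any list, with or without the block. Of 11 measured genes listed as methyl-CpG readers 7 were above and 4 below the control, with a median log2 difference of 0.035 and 0 at an unadjusted p under 0.05. The list also holds the sequence-specific factors CTCF, EGR1, KLF4 and WT1, so its counts are not confined to such readers. MBD2, which recruits a deacetylase complex, had a log2 difference of 0.030 and ZBTB33, the Kaiso repressor, of 0.045. Of 31 partners and recruiters of DNMTs, 22 were below, with a median of -0.020, and over all genes 46.4% were below. The groups of 3 did not overlap, all lower in shNDRG1 cells, against 3.21% of all genes. Without the block 2 were lower at an unadjusted p under 0.05, against 1.57% of all genes. These were CBX5, the heterochromatin protein HP1 alpha, at -0.19 (standard error 0.069), and NSD2, a histone H3 lysine 36 methyltransferase, at -0.14 (standard error 0.057). Once batches were blocked, neither had an unadjusted p under 0.05. CDCA7, a partner of the remodeller HELLS, had -0.21 (standard error 0.11) and TRIM28, a corepressor, -0.19 (standard error 0.32). SETD2 had 0.010 and EZH2 0.00030, each with a standard error of 0.28. Within batches SETD2 differed by -0.0010, 0.26 and -0.23 and EZH2 by 0.019, 0.51 and -0.53, so these means near 0 join differences of both signs.

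Base excision repair finishes what TET and TDG begin, and here 12 genes were measured, 8 above and 4 below the control. In both fits 2 genes were higher and 1 was lower at an unadjusted p below 0.05. Over all genes the shares were 2.69% higher and 1.57% lower without the block, and 5.70% and 3.74% with it. APEX1, the endonuclease that cuts the abasic site left by TDG, was at 0.075, -0.039 and 0.084 in shNDRG1 cells and at -0.11, -0.30 and -0.20 in control cells. Its groups did not overlap, and it was higher by 0.19, 0.26 and 0.29 within batches, a log2 difference of 0.24 (standard error 0.069). SMUG1, a uracil glycosylase, was higher by 0.34, 0.45 and 0.15, a log2 difference of 0.32 (standard error 0.077), and PARP2, a sensor of strand breaks, had -0.16 (standard error 0.059). The groups of these 3 genes did not overlap, as was so for 5.14% of all genes upwards and 3.21% downwards. The glycosylases MBD4 and NEIL1 had log2 differences of 0.021 and 0.078.

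Of 18 partners and cofactor genes of the TET enzymes 10 were above and 8 below, with a median of 0.017. In both fits 2 were lower at an unadjusted p under 0.05, against 1.57% of all genes without and 3.74% with the block, PROSER1 at -0.46 (standard error 0.18) and BCOR, a Polycomb corepressor, at -0.34 (standard error 0.11). With the block IDH3B was higher at that threshold, by 0.17, 0.16 and 0.38 within batches, against 5.70% of all genes. IDH3B is a subunit of the mitochondrial isocitrate dehydrogenase that makes 2-oxoglutarate. The other subunits in the list, IDH3A and IDH3G, had log2 differences of 0.079 and 0.012 and changed sign between batches. PROSER1 is a protein that in human cells promotes the glycosylation of TET2 by OGT. It differed by -0.35, -0.58 and -0.44 within batches, below the control each time as TET2 was, while OGT had -0.052 and CXXC5, a relative of CXXC4, 0.023. Of 23 genes of the S-adenosylmethionine and folate cycle, which supply the methyl group, 15 were above, with a median of 0.030 and 0 at an unadjusted p under 0.05. AHCY, which clears the by-product of every methyltransferase, had 0.0034, and NNMT, which consumes the methyl donor, had 0.030. With the block, 2 of these genes were lower and 1 higher at an unadjusted p under 0.05, against 3.74% and 5.70% of all genes.

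DNMT1 and UHRF1 are transcribed mostly in S phase, so replication genes were read beside them. Of 25 measured, 16 were below and 9 above the control, with a median log2 difference of -0.051, and 0 had an unadjusted p under 0.05 without the block. With it 2 were lower, against 3.74% of all genes, namely TYMS, thymidylate synthase, by -0.31, -0.21 and -0.34 within batches, and MCM7, a subunit of the replicative helicase, by -0.22, -0.18 and -0.089. In batches 1, 2 and 3 the median was -0.073, -0.0058 and -0.056, closest to 0 in batch 2. PCNA, the clamp that carries DNMT1 at the fork, had -0.0042, MCM2 -0.079, CCNE2 0.076 and E2F1 -0.12. Their part in the values of DNMT1 and UHRF1 was not tested.

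Genes that are commonly silenced by methylation lay on both sides of the control. Of 29 measured germline genes 16 were below and 13 above, with a median of -0.0073 and 0 at an unadjusted p under 0.05 in either fit. The mean over these 29 genes ranged from -0.0074 to -0.0031 in shNDRG1 arrays and from 0.0038 to 0.035 in control arrays, without overlap. The lowest of them was SYCP2, a protein of the meiotic chromosome axis, below the control by -0.55, -0.12 and -1.37 within batches, with a log2 difference of -0.68 (standard error 0.65, and 0.25 when batches were blocked). The germline regulator DAZL had 0.021, CTCFL, the testis paralogue of CTCF, -0.021, and SYCP3, the axis partner of SYCP2, -0.082. Of 23 genes listed as imprinted, 13 were above and 10 below, with a median of 0.014. Their imprinting in SKBR3 cells was not measured. IGF2R, the receptor that clears insulin-like growth factor 2, was the 1 gene of this list with an unadjusted p under 0.05 without the block, against 1.57% of all genes lower. It was at -0.42, -0.24 and -0.29 in shNDRG1 cells and 0.12, 0.23 and -0.0059 in control cells, a log2 difference of -0.43 (standard error 0.084). All its shNDRG1 arrays were below all its control arrays, as was so for 3.21% of all genes. With the block MEST was a second lower gene of the list, by -0.13, -0.11 and -0.32 within batches, against 3.74% of all genes. PEG10 had -0.31 and MEG3 0.014. Another list held 7 measured genes for the methylation of RNA or other substrates, including the RNA demethylase FTO. In it METTL16 was higher by 0.19, 0.23 and 0.18, with a log2 difference of 0.20 (standard error 0.048). METTL16 was the 1 gene of this list with an unadjusted p under 0.05 in either fit. Over all genes 2.69% were higher at that threshold without and 5.70% with the block. The groups of METTL16 did not overlap, against 5.14% of all genes in this direction. TRDMT1, the DNMT2 homologue that methylates transfer RNA, had -0.0055 and METTL3, an RNA adenine methyltransferase, 0.098.

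**Figure D4:**
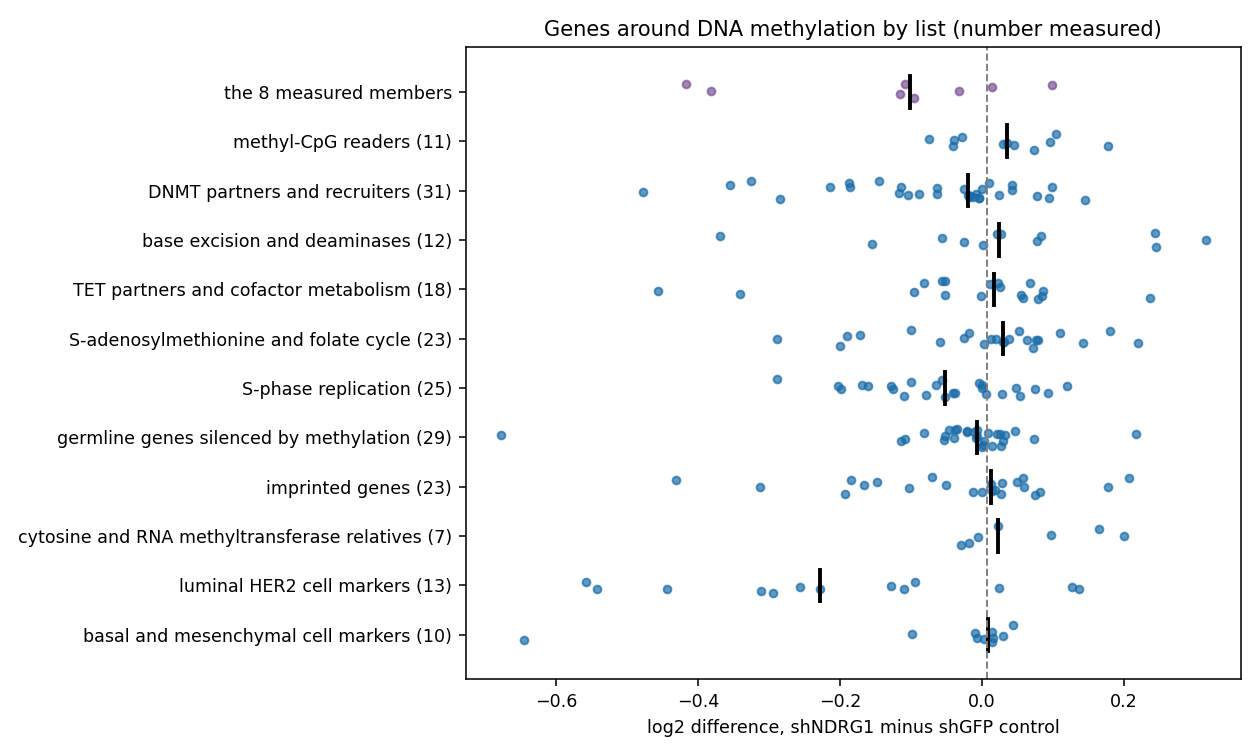
Log2 difference of shNDRG1 minus shGFP control (horizontal axis) for each measured gene of the 8 members and the 11 lists, 1 point per gene, with the list median as a black bar and the median of all genes (0.0070) as the dashed line. The list medians lie between -0.051 and 0.035 except for the members at -0.10 and the luminal markers at -0.23.

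Markers of the luminal HER2 state were mostly lower in shNDRG1 cells and are given here as measured. Of 13 measured, 10 were below the control, with a median log2 difference of -0.23, and 5 were lower at an unadjusted p under 0.05, against 1.57% of all genes. When batches were blocked, 4 were lower, against 3.74%. The mean over the 13 ranged from -0.13 to -0.025 in shNDRG1 arrays and from 0.060 to 0.17 in control arrays, without overlap. The mean of the germline list did not overlap between the groups either. CLDN4, a tight junction protein, had -0.31 (standard error 0.087), FOXA1 -0.56 (standard error 0.066), GRB7, which lies beside the HER2 gene, -0.44 (standard error 0.18) and KRT8 -0.11. The 3 markers above the control were ESRP1 at 0.14, TFAP2B at 0.13 and STARD3 at 0.025. ERBB2, the HER2 gene itself, was not among the 13. Of 10 measured basal and mesenchymal markers 4 were below, with a median of 0.0081, and the immune and endothelial markers PTPRC and PECAM1 were not analysed here. At an unadjusted p under 0.05 there were 0 without the block and 1 lower with it, FN1, against 3.74% of all genes. The list mean ranged from -0.094 to -0.0031 in shNDRG1 arrays against -0.031 to 0.059 in control arrays. VIM had -0.0090, ZEB1 0.043 and KRT5 -0.099. FN1, the matrix protein fibronectin, differed by -0.90, -0.38 and -0.67 within batches, a log2 difference of -0.65 (standard error 0.35, and 0.11 when batches were blocked). The part of these markers in the value of DNMT3B was not tested, and whether any marker was expressed cannot be told from values without a level.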

How the data were processed

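RNA of 6 SKBR3 cultures, which the methods call independent biological replicates, was hybridised to Affymetrix Gene ST arrays. The authors checked the arrays in Affymetrix Expression Console, summarized and quantile normalized them with PLIER in GeneSpring and subtracted a baseline. They deposited 1 value per probe and array on a log scale. No source read states its base, and the deposited values were taken as log2. In the methods the baseline is the control median, but this was 0, within 1e-05, for 0.338% of 44629 probes, and the median of all 6 arrays for 26.8%, so the baseline stays unknown. It cancels in differences. No 2 arrays shared more than 54 identical values, and 0 columns were left unused.

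The platform annotation gave 1 symbol for 15835 probes, several for 0, and left 28794 unnamed here. Probes of the same symbol were averaged, giving 14812 genes, and updating symbols changed 0. No filter on dim probes was possible, since no level remains. The test was limma 3.58.1 under R 4.3.3 (lmFit and eBayes, no covariate, Benjamini-Hochberg adjustment, threshold 0.05), because the methods name no test, and standard errors are from that fit unless the block is named. Each batch number of the labels belongs to 1 shNDRG1 and 1 control array, so the replicate block was fitted as well. Deviations from the group means correlated over genes within these pairs at 0.785, 0.833 and 0.163, weakly in the last. The shNDRG1 array of the first pair also correlated at 0.64 with the control array of the last, so these values do not show pairing in every batch. Other alternatives were the label day as a block, normalization, variance models, array weights, probe choice, a filter on SD, a threshold of 0.1 and leaving out arrays. The script was tested on simulated data. The members, the 11 lists and the rule for named genes were chosen with earlier results of these data known. Named are the members, NDRG1, the anchor genes of each list, list genes with an unadjusted p under 0.05 (at most 4 per list, otherwise the 2 with the smallest p in each direction), and the genes most and least like DNMT3B. Chromosomal neighbours, SYCP2 and the list genes named only for the block (TYMS, MCM7, MEST, IDH3B) were picked out with their values known. So were the luminal markers above the control (ESRP1, TFAP2B, STARD3) and the subunits beside IDH3B (IDH3A, IDH3G). CTCF, EGR1, KLF4, WT1 and FTO are named only to describe their lists. Plots used matplotlib 3.10.9 (Python 3.11.15).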

Additional observations from a re-analysis of the deposited data

How the results depend on the processing

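The log2 difference of DNMT3B was below 0 under every alternative, at -0.48 after quantile normalization again and from -0.44 to -0.39 without single arrays or batches. DNMT3B was less precise in some of them, with a standard error of 0.080 after quantile normalization again, against 0.046 in the main fit. With the filter on SD it had a standard error of 0.15 and an unadjusted p of 0.021 from limma. Its difference minus the mean of the 7 other measured members was -0.24 with array quality weights and ranged from -0.38 to -0.25 without single arrays or batches, with -0.25 when the batch 2 control array was left out, and it could not be given with the filter on SD, which dropped DNMT3A and DNMT3L. Array weights called 5 genes, 4 higher and 1 lower, none of them a member. Under every other alternative, and without any array or batch, 0 genes and 0 members were called in limma. With the batch as a block these counts were 0 and 0 and the DNMT3B difference was -0.42, and the block changed no call. At an unadjusted p under 0.05 there were 232 genes lower and 399 higher, against 554 and 845 with the block, 1186 and 1753 with array weights, 96 and 79 with the filter on SD, 465 and 553 when the batch 2 control array was left out, 471 and 454 without batch 2 and 145 and 146 without batch 3. Without batch 2, UHRF1 joined DNMT3B and TET2 at that threshold, and TET1 and UHRF1 joined DNMT3B with array weights. TET2, DNMT1, UHRF1 and DNMT3L stayed below 0 under all alternatives, DNMT1 from -0.23 to -0.0084, UHRF1 from -0.21 to -0.042 and DNMT3L from -0.14 to -0.018. DNMT3A (-0.074 to 0.16), TET1 (-0.18 to 0.043) and TDG (-0.11 to 0.27) took both signs. Quantile normalization and median centring turned none of the members. The cause of these moves was not tested.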
